A study of Mus musculus with 23 samples.

Results

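Goblet cells are the mucus-secreting cells of the intestinal lining, and 10 of their genes are described here in RNA from mouse small intestine: Muc2, Fcgbp, Clca1, Zg16, Muc13, Tff3, Spink4, Retnlb, Agr2 and Spdef. They were taken by name, through the NCBI Gene number of each entry, from a table of 19215 entries, and all 10 were among the 11337 entries with a mean of at least 1 FPKM (fragments scaled to transcript length and library size), which were tested. Male ICR mice, an outbred stock, were given busulfan once at 40 mg/kg when 3 weeks old, and from the next day saline (Sa) or small intestinal microbiota (FMT) by gavage. The microbiota came from donors dosed with water (Con-FMT), with alginate oligosaccharides (AOS) at 10 mg/kg (A10-FMT) or with AOS at 100 mg/kg (A100-FMT), and the contents of the donors of a group were pooled, so that the mice of an FMT group shared 1 inoculum. The 23 libraries carry 1 of 2 codes in their names, called set 1 and set 2 here. What the codes mean was not given in the sources used here. The authors describe daily FMT for 1 week, then another week without it and collection at 5 weeks of age. This schedule was assigned to set 1 only. Each of the 8 groups had 3 libraries except Sa in set 1, which had 2 (replicates 1 and 3). Every mouse had received busulfan, so the levels cannot be set against mice without the drug.

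Goblet cells build the mucus layer from the gel-forming mucin Muc2, which is glycosylated, packed into granules and released with partner proteins that bind or cut it. They arise in the crypt from secretory progenitors under the transcription factors Atoh1 and Spdef, and their number and secretion change with the microbiota and with cytokines such as interleukin 13. Busulfan is an alkylating drug that harms dividing cells, the crypt included. RNA of small intestine samples was measured in bulk, so more goblet cells and more RNA per goblet cell cannot be told apart.

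The sum of FPKM per library was between 556466 and 667957, and the read depth is unknown. The highest sum belonged to Sa replicate 3 of set 1, whose deviations from the median library followed GC content (Spearman's rho of 0.689 over 10408 entries), while rho was between -0.22 and 0.222 in the other 22 libraries. The description of this library names the column of another replicate number than its title, and values without it are given beside the results that turn on it. The epithelial markers Epcam and Vil1 were at 857 to 1049.6 and 592 to 914 FPKM, whereas 7 genes of smooth muscle summed to at most 2.11 FPKM and 10 pancreatic acinar enzymes to at most 4.64 FPKM. The 12 enterocyte markers and the 9 Paneth cell markers varied between groups, and sums of both are given after the values of Muc13.

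The 10 genes held between 1.47% and 2% of all FPKM, with a median of 1.77%. By mean FPKM over the 23 libraries (± SD), Zg16 stood first with 3001 ± 499, followed by Tff3 with 2196 ± 375, Muc13 with 1296 ± 152, Agr2 with 870.1 ± 71.1, Spink4 with 794 ± 125, Fcgbp with 678 ± 62.6, Retnlb with 523 ± 170.0, Clca1 with 509.9 ± 79.6, Muc2 with 336 ± 57.3 and Spdef with 18 ± 2.39. The ends of this order were fixed and its middle was not. Zg16 exceeded Tff3, Tff3 exceeded Muc13, Muc13 exceeded Agr2, Clca1 exceeded Muc2 and Muc2 exceeded Spdef in all 23 libraries, but Agr2 exceeded Spink4 in 21, Spink4 exceeded Fcgbp in 18, Fcgbp exceeded Retnlb in 19 and Retnlb exceeded Clca1 in 13. FPKM divides by transcript length, and the length used by the authors was not given in the sources used here. The longest transcript of Muc2 in the GENCODE annotation is 2926 bases and that of Fcgbp is 7928 bases, so their place in the order depends on the gene model. Over the libraries the coefficient of variation was lowest for Agr2 (8.17%) and Fcgbp (9.23%) and highest for Retnlb (32.5%), beside a median of 12.3% over the tested entries.

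**Figure D1:**
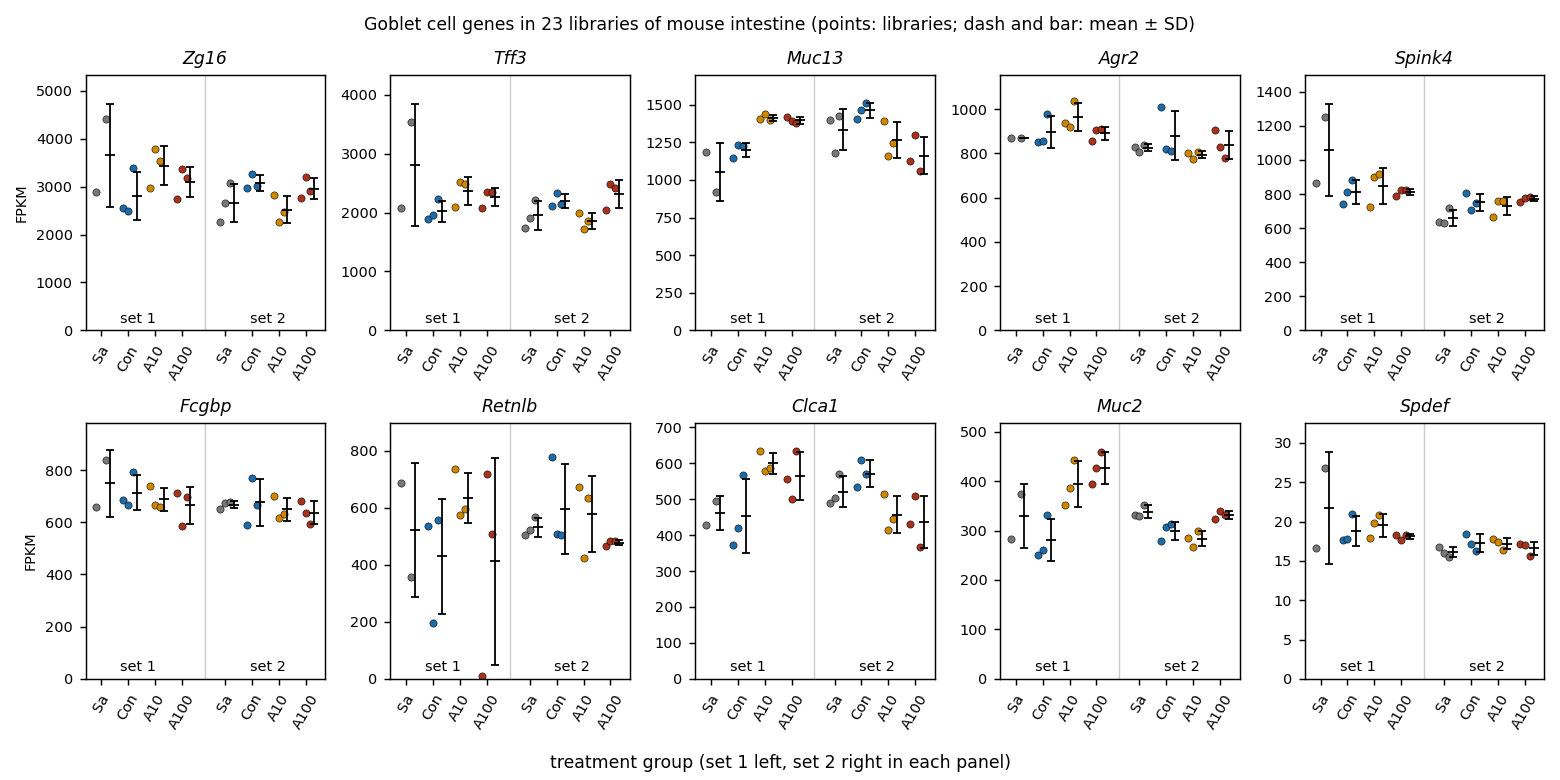
FPKM of the 10 goblet cell genes in each library (points), by treatment and set, with the mean and SD of each group; axes start at 0. Muc2 of A10-FMT and A100-FMT lies above Con-FMT in set 1, Muc13 of A10-FMT and A100-FMT in set 1 lies between 1377 and 1436, and Retnlb is at 9.93 in 1 library of A100-FMT in set 1.

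Muc2 (chromosome 7, 141690340 to 141754691, GRCm38.p6), the gel-forming mucin, was called between treatments in set 1 and in none of the set 2 comparisons. In set 1 its FPKM was 251, 260.5 and 331 for Con-FMT, 351, 386 and 444 in A10-FMT and 395, 427 and 459.6 in A100-FMT. Every A10-FMT and A100-FMT library was above every Con-FMT library. The difference on the log2(FPKM + 1) scale was 0.49 ± 0.109 (SE) for A10-FMT against Con-FMT, a 1.4-fold difference (limma, adjusted p = 0.0063), and 0.61 ± 0.109 for A100-FMT against Con-FMT, a 1.53-fold difference (adjusted p = 0.027). The Sa libraries of set 1, at 283 and 375, overlapped with Con-FMT and A10-FMT, and A100-FMT was higher than Sa by 0.39 ± 0.122 (adjusted p = 0.025), while A10-FMT differed from Sa by 0.26 ± 0.122 (adjusted p = 0.1). The latter passed without Sa replicate 3 (0.47, adjusted p = 0.042), with the column of the description in its place (0.6, adjusted p = 0.00088) after adjustment for GC content and length (0.38, adjusted p = 0.012), under quantile normalization (0.33, adjusted p = 0.041) and with the replicate block (0.28, adjusted p = 0.022). Without Sa replicate 1 the A100-FMT difference from Sa was 0.18 and without Sa replicate 3 it was 0.59, neither of which passed (adjusted p = 0.24 and 0.059). For A100-FMT against Con-FMT the call was lost without Con-FMT replicate 1 or 2 or without A100-FMT replicate 2 or 3, with differences of 0.54, 0.56, 0.61 and 0.56 and an adjusted p of 0.15, 0.16, 0.091 and 0.13. A fit of the compared groups alone also lost it (adjusted p = 0.12), and lost the call against Sa (adjusted p = 0.37).

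In set 2 Muc2 stood at 331, 330.3 and 353 FPKM in Sa, 279, 306 and 313 for Con-FMT, 285, 267 and 299 in A10-FMT and 324, 339.7 and 332 in A100-FMT. A100-FMT was again above every Con-FMT library, by 0.15 ± 0.109 on the log2 scale, which did not pass (limma, adjusted p = 0.65), and A10-FMT overlapped with Con-FMT (-0.08 ± 0.109, adjusted p = 0.84). The A10-FMT against Con-FMT difference was smaller in set 2 than in set 1 by -0.57 ± 0.154 (adjusted p = 0.016), and the same test for A100-FMT gave -0.46 ± 0.154 (adjusted p = 0.22). Against Sa, whose set 2 libraries lay above all of A10-FMT, the difference between the sets was -0.52 ± 0.163 for A10-FMT (adjusted p = 0.025), and it was -0.32 without Sa replicate 1 of set 1 (adjusted p = 0.11). Over both sets A100-FMT exceeded Con-FMT by 0.38 ± 0.0771 (adjusted p = 0.069), and Muc2 was the gene called in the 6 alternatives that gave a call there. Muc2 was higher in A100-FMT than in Con-FMT in 6 of 6 libraries within their sets, and in A10-FMT in 3 of 3 libraries of set 1 and 0 of 3 of set 2. The share of tested entries with such a pattern over both sets was not computed.

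The promoter stretches below show the start regions of the mucin Muc2, of its partner gene Fcgbp, which did not follow it, and of both starts of Muc13, the other mucin among the 10 genes. They are the 250 bases before each transcription start in RefSeq on GRCm38.p6, all on the plus strand, written 5′ to 3′, and capitals mark CAGCTG, an E-box of the kind bound by Atoh1. The window of Muc2 is chr7:141690090-141690339, that of Fcgbp chr7:28070986-28071235, and those of Muc13 chr16:33793787-33794036 and chr16:33794239-33794488.
Muc2: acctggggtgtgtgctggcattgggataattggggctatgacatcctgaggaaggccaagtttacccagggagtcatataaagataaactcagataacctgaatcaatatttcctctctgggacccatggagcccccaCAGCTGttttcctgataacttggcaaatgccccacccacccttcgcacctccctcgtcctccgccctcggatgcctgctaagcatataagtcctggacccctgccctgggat
Fcgbp: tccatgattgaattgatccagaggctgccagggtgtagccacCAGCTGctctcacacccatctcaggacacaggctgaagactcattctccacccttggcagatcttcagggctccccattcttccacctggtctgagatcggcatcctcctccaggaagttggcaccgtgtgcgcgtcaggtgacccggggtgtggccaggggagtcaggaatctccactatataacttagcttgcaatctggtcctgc
Muc13, first start: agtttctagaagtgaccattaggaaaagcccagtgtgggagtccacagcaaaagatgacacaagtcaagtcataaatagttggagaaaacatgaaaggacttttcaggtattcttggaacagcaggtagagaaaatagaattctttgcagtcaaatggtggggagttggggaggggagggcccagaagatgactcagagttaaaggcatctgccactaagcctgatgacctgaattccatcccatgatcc
Muc13, second start: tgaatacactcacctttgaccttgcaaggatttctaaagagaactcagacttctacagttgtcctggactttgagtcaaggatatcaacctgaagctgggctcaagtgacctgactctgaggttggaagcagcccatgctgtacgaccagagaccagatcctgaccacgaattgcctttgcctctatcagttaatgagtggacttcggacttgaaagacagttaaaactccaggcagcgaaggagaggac
CAGCTG, which is its own reverse complement, was found once in Muc2, 112 bases before the start, and once in Fcgbp, 208 bases before it, and in neither window of Muc13. It was present in 13% of the 32851 promoter windows of this length. GGAT, the core that Spdef prefers, was found on either strand 4 times in Muc2, 2 times in Fcgbp and 2 and 3 times in the windows of Muc13, beside at least 1 match in 74.1% of all windows. TGTTTAC, a forkhead motif, was in none of these windows and in 3.17% of all. Promoter windows were found for 5 of the 10 genes, Agr2 and Spdef being the others, and letters alone do not show binding.

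Fcgbp (chromosome 7, 28071236 to 28120864) encodes an IgG Fc-binding protein that is secreted with Muc2 and joins the mucus network. It did not share the differences of Muc2. In set 1 it was at 684, 666 and 791 FPKM in Con-FMT, 739.7, 665 and 659 in A10-FMT and 713, 585 and 697 in A100-FMT, and the groups overlapped. The log2 differences from Con-FMT were -0.05 ± 0.107 and -0.1 ± 0.107 (limma, adjusted p = 0.79 and 0.82). In set 2 its groups spanned 592 to 771 FPKM and no comparison of Fcgbp passed the test.

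The ratio of Muc2 to Fcgbp FPKM within a library shows the unequal movement of both genes directly. In set 1 it was 0.43 and 0.447 for Sa, 0.367, 0.391 and 0.418 for Con-FMT, 0.475, 0.579 and 0.673 in A10-FMT and 0.554, 0.729 and 0.66 in A100-FMT, so that every library of the AOS donors stood above every other library of set 1. In set 2 it was 0.508, 0.491 and 0.519 for Sa, 0.472, 0.397 and 0.469 for Con-FMT, 0.407, 0.434 and 0.472 in A10-FMT and 0.475, 0.533 and 0.56 in A100-FMT. There A100-FMT was above Con-FMT and A10-FMT but not above Sa. The ratio was chosen after its values were seen and was not tested.

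**Figure D2:**
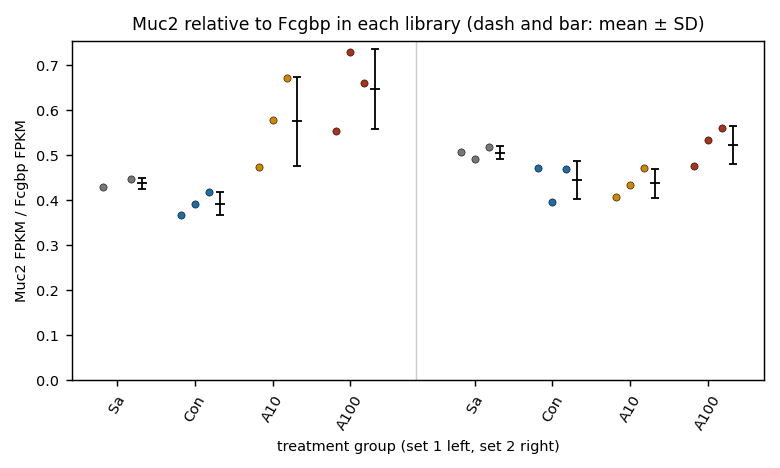
Ratio of Muc2 FPKM to Fcgbp FPKM in each library (points), by treatment, set 1 on the left and set 2 on the right, with the mean and SD of each group. In set 1 the libraries of A10-FMT and A100-FMT lie between 0.475 and 0.729, above the Sa and Con-FMT libraries at 0.367 to 0.447.

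Clca1 (chromosome 3, 145004537 to 145032776), a secreted metalloprotease that cuts Muc2 and loosens the mucus, rose with Muc2 in A10-FMT of set 1 and went the other way in set 2. Its FPKM in set 1 was 372, 419 and 568 for Con-FMT and 633, 579 and 586 in A10-FMT, which did not overlap, a log2 difference of 0.42 ± 0.14 (limma, adjusted p = 0.045). The call was lost without any single library of A10-FMT, without Con-FMT replicate 1 or 2 (0.29 and 0.38), and in 13 of the 23 fits that left out 1 library. A100-FMT, at 557, 502 and 633, overlapped with Con-FMT (0.33 ± 0.14, adjusted p = 0.38). In set 2 Con-FMT had 534, 608 and 571 FPKM, all above the 514, 414 and 444 of A10-FMT and the 431, 510.1 and 366 of A100-FMT, with log2 differences of -0.33 ± 0.14 (adjusted p = 0.36) and -0.4 ± 0.14 (adjusted p = 0.3). The difference between the sets itself passed for A10-FMT, at -0.75 ± 0.198 (adjusted p = 0.013), and not for A100-FMT, at -0.73 ± 0.198 (adjusted p = 0.15). In the Sa libraries Clca1 was at 428 and 496 in set 1 and at 490.0, 502 and 571 in set 2.

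Zg16 (chromosome 7, 127050156 to 127052675), a lectin of the mucus that binds and aggregates gram-positive bacteria, was the most abundant of the 10 genes and was not called in any comparison. In set 1 it was at 2548, 2492 and 3393 FPKM in Con-FMT, 2982, 3786 and 3542 in A10-FMT and 2751, 3367 and 3186 in A100-FMT. In set 2 it was at 2966, 3266 and 3009.7 for Con-FMT, 2815, 2262 and 2466 in A10-FMT and 2768, 3205 and 2902 in A100-FMT. The log2 difference of A10-FMT from Con-FMT was 0.3 ± 0.154 in set 1 (limma, adjusted p = 0.19) and -0.3 ± 0.154 in set 2 (adjusted p = 0.47), and the difference between the sets was -0.59 ± 0.217 (adjusted p = 0.06), which passed in 6 of 10 alternatives and without either Sa library of set 1 (adjusted p = 0.02). The Sa libraries spanned 2271 to 4415 FPKM, the highest being Sa replicate 3 of set 1.

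Muc13 (chromosome 16, 33794037 to 33819929) is a mucin anchored in the cell membrane and is made by enterocytes as well as goblet cells. In set 1 its FPKM was 1188 and 917 for Sa, 1143, 1229.6 and 1223 for Con-FMT, 1405, 1436 and 1402 in A10-FMT and 1419.7, 1391 and 1377 in A100-FMT. All 6 libraries of the AOS donors were above all 5 others of the set. A10-FMT was higher than Sa by 0.44 ± 0.106 (limma, adjusted p = 0.0062) and A100-FMT by 0.42 ± 0.106 (adjusted p = 0.012), and both calls were lost without Sa replicate 3, with differences of 0.25 and 0.23 (adjusted p = 0.17 and 0.39), and in a fit of the compared groups alone (adjusted p = 0.31 and 0.37). Against Con-FMT the differences were 0.24 ± 0.0949 for A10-FMT (adjusted p = 0.092, or 0.029 without either Sa library) and 0.22 ± 0.0949 for A100-FMT (adjusted p = 0.38).

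In set 2 the libraries of the AOS donors lay below Con-FMT for Muc13. Con-FMT had 1409, 1466 and 1511 FPKM, above the 1392, 1157 and 1244 of A10-FMT and the 1128, 1298 and 1057 of A100-FMT, while Sa had 1399, 1182 and 1425. None of the set 2 comparisons of Muc13 passed the test, A100-FMT against Con-FMT coming nearest with -0.34 ± 0.0949 (limma, adjusted p = 0.2, or 0.039 without either Sa library of set 1, which enter the estimate of the spread). The differences between the sets passed for A10-FMT against Sa (-0.52 ± 0.142, adjusted p = 0.013), for A100-FMT against Sa (-0.62 ± 0.142, adjusted p = 0.01) and for A10-FMT against Con-FMT (-0.45 ± 0.134, adjusted p = 0.024), the last of which was lost in 4 of the 23 fits without 1 library. For A100-FMT against Con-FMT the value was -0.56 ± 0.134 (adjusted p = 0.14, or 0.028 without either Sa library of set 1). Without Sa replicate 3 of set 1 the difference between the sets was -0.33 for A10-FMT against Sa and -0.43 for A100-FMT against Sa, and neither passed (adjusted p = 0.099 and 0.075).

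Markers of enterocytes, the other cells that make Muc13, moved the same way between A10-FMT and Con-FMT. The sum of the 12 markers was 9059.5 to 10254.5 FPKM in Con-FMT and 14722 to 17986 in A10-FMT of set 1, and 9723 to 11802 for Con-FMT and 6217 to 8667 in A10-FMT of set 2. Of the 12, 9 were higher and 0 lower in A10-FMT than in Con-FMT of set 1 (median log2 difference 0.76), 2 were lower in set 2, and 9 had a smaller difference in set 2 than in set 1 (median -1.17). The shares of all tested entries called in either direction were 16.7%, 0.379% and 20.8% in the same order. Against Sa in set 1, 10 of the 12 were higher in A10-FMT (median 0.79) and 4 in A100-FMT (median 0.37), beside 32% and 35.2% of all tested entries. The 4 of 12 in A100-FMT were thus no more than that share. The difference was smaller in set 2 for 12 and 7 of the markers (medians -1.22 and -0.55), beside 28.4% and 26.8%. Of 12 genes of crypt proliferation 8 were lower in A10-FMT of set 1, where they summed to 711 to 766 FPKM beside 926 to 1002 in Con-FMT. In A100-FMT of set 1 none of the enterocyte markers was called against Con-FMT with limma, at a sum of 10694 to 13142.5 FPKM. Of 9 Paneth cell markers 6 were lower there (median -0.86), beside 0.406% of all tested entries called. They summed to 7805 to 11032.5 FPKM against 15832 to 21041.5. The part of these cell types in the values of Muc2, Clca1 and Muc13 was not tested.

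Tff3 (chromosome 17, 31125306 to 31129611), a trefoil peptide secreted with the mucus and involved in the repair of the lining, was abundant and passed in no comparison. In set 1 it was at 1885, 1949.8 and 2228 FPKM in Con-FMT, 2087, 2522 and 2475 in A10-FMT and 2078, 2354 and 2344 in A100-FMT, and in set 2 at 2109, 2332 and 2152, 1992, 1713 and 1861, and 2043, 2484 and 2422 in the same groups. A10-FMT of set 2 thus lay below every Con-FMT library, by -0.25 ± 0.146 on the log2 scale (limma, adjusted p = 0.54). The difference between the sets for A10-FMT against Con-FMT was -0.47 ± 0.207 (adjusted p = 0.12, or 0.019 without either Sa library of set 1). The Sa libraries of set 1 were far apart, at 2081 and 3538, and those of set 2 were at 1732, 1913 and 2216.

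Spink4 (chromosome 4, 40920056 to 40931395) encodes a Kazal-type peptide of goblet cell granules. It was called lower in Con-FMT and in A100-FMT than in Sa of set 1, both near the threshold. Its FPKM was 865 and 1249 for Sa, 739, 813 and 885 for Con-FMT, 723, 899 and 915 in A10-FMT and 788, 824 and 823 in A100-FMT. The log2 difference from Sa was -0.36 ± 0.126 for Con-FMT (limma, adjusted p = 0.044) and for A100-FMT (adjusted p = 0.038), and -0.31 ± 0.126 for A10-FMT (adjusted p = 0.071). Without Sa replicate 3, at 1249 FPKM, the differences of Con-FMT and A100-FMT were both -0.09. The call of Con-FMT was lost in 16 of the 23 fits without 1 library. That of A100-FMT was lost in 4, among them each fit without 1 of its own libraries. Each call was also lost in 6 of 10 alternatives. In set 2 Spink4 was lowest in Sa, at 634, 629 and 715 FPKM, against 806, 706 and 745 for Con-FMT, 666, 757 and 758 in A10-FMT and 755, 774 and 785 in A100-FMT. All A100-FMT libraries of set 2 were above all of Sa, by 0.23 ± 0.113 (adjusted p = 0.37), and the difference between the sets for A100-FMT was 0.59 ± 0.169 (adjusted p = 0.022), or 0.32 without Sa replicate 3 (adjusted p = 0.2). It was lost in 5 of 10 alternatives and was 0.12 after adjustment for GC content and length (adjusted p = 0.76).

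Retnlb (chromosome 16, 48816856 to 48818892), also called RELM beta, is an antibacterial protein that goblet cells make in response to the microbiota and to interleukin 13. It varied most among the 10 genes. Its FPKM was 688 and 357 for Sa, 536, 196 and 556 for Con-FMT, 735, 575 and 595 in A10-FMT and 9.93, 717 and 509 in A100-FMT of set 1. In set 2 it was 504, 522 and 569 for Sa, 778, 507 and 503 for Con-FMT, 672, 425 and 636 in A10-FMT and 467, 482 and 485 in A100-FMT. A100-FMT replicate 1 of set 1 was the lowest by far: the median of the other 22 libraries, 529 FPKM, was 53.3 times its value, and the second lowest library was 19.7 times its value. With it the log2 difference of A100-FMT was -1.65 ± 1.08 from Sa and -1.29 ± 0.967 from Con-FMT (limma, adjusted p = 0.23 and 0.7), and without it 0.29 and 0.64 (adjusted p = 0.6 and 0.66). No comparison of Retnlb passed with or without this library. Retnlb and Clca1 belong to families of similar genes, and how reads shared between relatives were counted was not given in the sources used here.

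Agr2 (chromosome 12, 35992925 to 36004081), a protein disulfide isomerase of the endoplasmic reticulum that folds Muc2, was the steadiest of the 10 genes. Its group means ran from 794 ± 16.5 FPKM (SD, n = 3) in A10-FMT of set 2 to 966 ± 63.4 (n = 3) in A10-FMT of set 1. A10-FMT was 937, 921 and 1038 in set 1, beside 853, 854 and 979 for Con-FMT, and 801, 775 and 806 in set 2, beside 1009, 821 and 812. The log2 differences were 0.11 ± 0.0787 and -0.14 ± 0.0787 (limma, adjusted p = 0.36 and 0.5), and no comparison of Agr2 passed the test.

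Spdef (chromosome 17, 27714446 to 27731003), the transcription factor that drives the maturation of goblet cells, was measured at 15.5 to 26.8 FPKM and passed in no comparison between treatments. In set 1 it was at 16.7 and 26.8 for Sa, 17.7, 17.8 and 21 for Con-FMT, 17.9, 19.8 and 20.9 in A10-FMT and 18.3, 17.7 and 18.3 in A100-FMT. In set 2 it stayed between 15.5 and 18.4. The log2 differences of A10-FMT and A100-FMT from Con-FMT lay between -0.05 and 0.05 in both sets, with standard errors of 0.113.

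Counted over the 10 genes, calls were read beside the share of all tested entries called in each comparison. In set 1, A10-FMT against Con-FMT called 2 of 10, both higher (Muc2 and Clca1), beside 16.7% of the tested entries, and A100-FMT against Con-FMT called 1 of 10 (Muc2) beside 0.406%. Against Sa in set 1, Con-FMT called 1 of 10 beside 26.9%, A10-FMT 1 of 10 beside 32%, and A100-FMT 3 of 10 beside 35.2%, so that the 10 genes were called no more often than other entries there. The median log2 difference of the 10 genes was 0.231 for A10-FMT against Con-FMT in set 1, where 9 of 10 were positive, and -0.109 in set 2, where 0 of 10 were positive, beside -0.076 and 0.047 over all tested entries.

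In set 2 none of the 10 genes was called by limma in any of the 5 comparisons, beside 0.0353% of the tested entries for Con-FMT against Sa, 0.423% for A10-FMT against Sa, 0.0353% for A100-FMT against Sa, 0.379% for A10-FMT against Con-FMT and 0% for A100-FMT against Con-FMT. At an unadjusted p under 0.05 the numbers were 0, 1, 1, 2 and 2 of 10, beside 5.74%, 14.4%, 14.2%, 11.9% and 11.2% of the tested entries. Groups that do not overlap were found for 1, 2, 2, 5 and 4 of the 10 genes in these comparisons, beside 17.2%, 30.6%, 28.5%, 25.3% and 22.6% of the tested entries. In set 1 they were found for 0, 3, 4, 4 and 2 of 10 beside 32.3%, 37.4%, 39.8%, 42.1% and 21.8%. Averaged over both sets no member was called in the 5 comparisons, beside 0.75%, 0.132%, 0.891%, 0% and 0.123%, and 2, 1, 1, 1 and 1 of 10 had an unadjusted p under 0.05, beside 23.5%, 19.9%, 26.3%, 6.15% and 9.68%. The comparisons share their Sa or Con-FMT libraries and are not independent of each other.

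**Figure D3:**
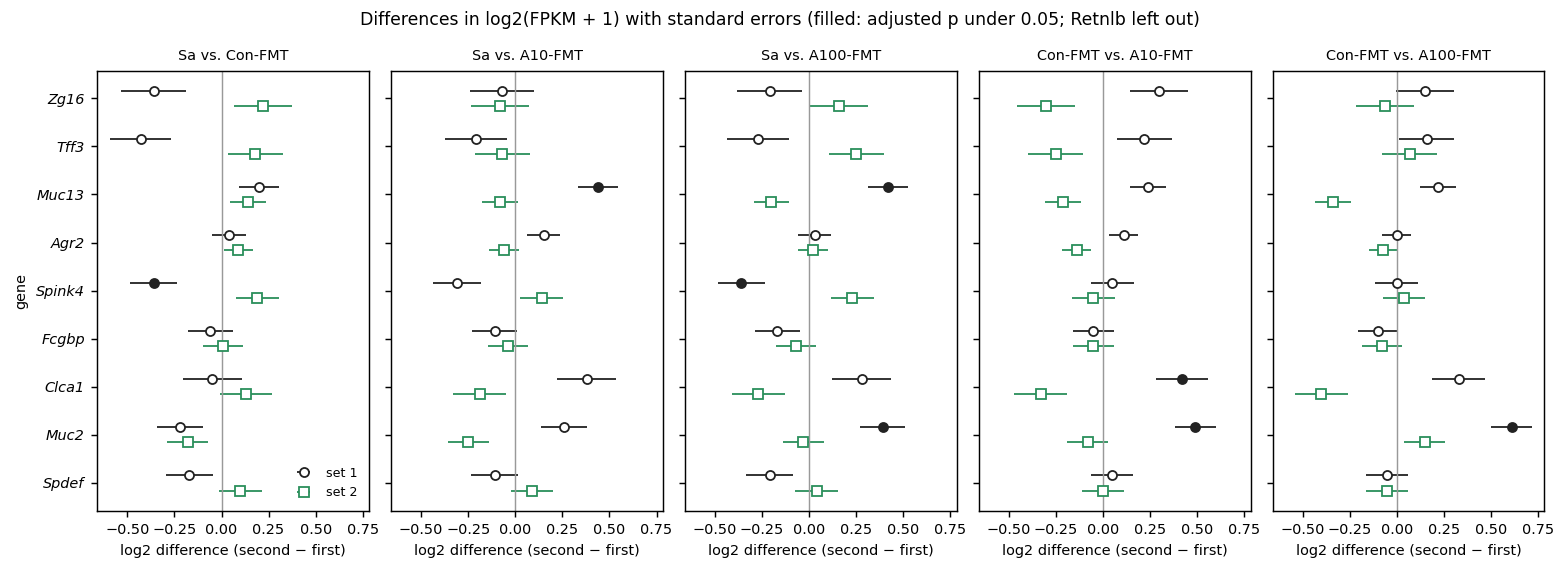
Differences in log2(FPKM + 1) of 9 goblet cell genes for 5 comparisons (second group minus first), in set 1 (circles) and set 2 (squares), with bars of 1 standard error and filled symbols for an adjusted p under 0.05. Filled symbols occur in set 1 only, and for A10-FMT against Con-FMT Zg16, Tff3, Muc13, Agr2 and Clca1 lie above 0 in set 1 and below 0 in set 2; Retnlb is left out because its standard errors reach 1.08.

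Each difference between treatments was also tested for a difference between the sets. For A10-FMT against Con-FMT, 3 of 10 genes (Muc2, Clca1 and Muc13) passed, all with a smaller difference in set 2, beside 20.8% of the tested entries, and all 10 had the negative sign. Muc2 and Clca1 passed in each of the 10 alternatives and each of the 23 fits without 1 library, with values of -0.69 to -0.48 for Muc2 and -0.92 to -0.62 for Clca1. The median of all tested entries was 0.126 in this test and 0.015 after trimmed-mean scaling, under which Muc2, Clca1 and Muc13 were at -0.69, -0.87 and -0.58. For A100-FMT against Con-FMT 0 of 10 passed with limma, beside 0% of entries, and 3 of 10 had an unadjusted p under 0.05, beside 13.1%. Both tests were added after the values were seen. Against Sa, 0 of 10 passed for Con-FMT beside 0.00882%, 2 of 10 for A10-FMT beside 28.4% and 2 of 10 for A100-FMT beside 26.8%, and 3 of 10 had an unadjusted p under 0.05 for Con-FMT, beside 34.3%.

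Averaged over the 4 treatments, 2 of 10 genes were lower in set 2 than in set 1, beside 13.3% of the tested entries. Spink4 had a median of 824 FPKM (range 723 to 1249) over the 11 libraries of set 1 and of 749.96 (629 to 806) over the 12 of set 2, a log2 difference of -0.26 ± 0.0582 (limma, adjusted p = 0.018). This call was lost in 2 of 9 alternatives. They were array quality weights (-0.26, adjusted p = 0.1) and the adjustment for GC content and length (-0.21, adjusted p = 0.086). Spdef had medians of 18.3 and 16.9 FPKM and differed by -0.2 ± 0.058 (limma, adjusted p = 0.038). Its call was lost in 3 of 9 alternatives and in 17 of the 23 fits without 1 library, among them that without Sa replicate 3 of set 1 (-0.11). Without Sa replicate 1, which leaves that group to Sa replicate 3, the number of genes called between the sets was 7. What distinguishes the sets beyond their code cannot be told apart from these differences.

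Other goblet cell genes were read from a list of 23, of which 21 were tested. In A10-FMT against Con-FMT of set 1, 3 were higher and 1 lower (median 0.05), beside 16.7% of all tested entries called in either direction. They were Oit1 (0.46, limma, adjusted p = 0.0035), S100a6 (0.72, adjusted p = 0.0065) and Tspan13 (0.26, adjusted p = 0.0037) against the chemokine Ccl6 (-0.29 ± 0.0819, adjusted p = 0.022). The first 3 were chosen after their values were seen. The same 3 were the genes of the list with a smaller difference in set 2 (-0.74, -1.04 and -0.39), beside 20.8% of all tested entries called in that test. Guca2a, the precursor of guanylin, was the most abundant of the list with 465 FPKM and differed by 0.18 ± 0.13 (adjusted p = 0.36). A100-FMT against Con-FMT of set 1 called 0 of 21 with limma, beside 0.406% of the tested entries. Between the sets 9 of 21 were lower and 0 higher in set 2 (median -0.14), beside 13.3% of the tested entries called in either direction. Guca2a (-0.24, limma, adjusted p = 0.031) and Ccl6 (-0.3, adjusted p = 0.0034) were among them.

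Of 9 transcription factors of the secretory lineage, Klf4, a factor of both goblet cells and differentiated surface cells, went the same ways as Clca1. Its FPKM was 36.1 ± 5.29 for Con-FMT and 55.2 ± 4.17 in A10-FMT of set 1, and 43.7 ± 3.11 and 30.2 ± 1.09 in set 2 (SD, n = 3 each). A10-FMT was higher by 0.61 ± 0.117 in set 1 (limma, adjusted p = 0.0026) and differed by -0.52 ± 0.117 in set 2 (adjusted p = 0.058), and the difference between the sets was -1.12 ± 0.166 (adjusted p = 0.00036). Klf4 was the 1 factor of the 9 called in A10-FMT against Con-FMT of set 1, beside 16.7% of the tested entries. The list did not move with it: the median of the 9 was -0.08, with 2 of 9 positive. For the difference between the sets the median was 0.05, with 5 of 9 positive. Hes1, the Notch target that holds cells out of the secretory lineage, differed there by -0.14 ± 0.0612 (adjusted p = 0.13).

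The enzymes that sugar the mucins and the folding machinery that carries the secretory load moved little between the FMT groups. Of 23 tested genes of mucin O-glycosylation 1 was called in A10-FMT against Con-FMT of set 1, B4galnt3 (0.26, adjusted p = 0.04, chosen after its value was seen), with a median of -0.07. B4galnt2, which transfers a sugar to the end of glycan chains, differed by -0.09 ± 0.133 (limma, adjusted p = 0.67). Of 22 genes of the endoplasmic reticulum load 1 was called, Ern2 (-0.24, adjusted p = 0.044), the stress sensor of goblet cells, also chosen after its value was seen. The chaperones Calr and Hspa5 differed by -0.03 ± 0.0575 and 0.05 ± 0.133 (adjusted p = 0.76 and 0.83). In set 2 no gene of either list was called in this comparison with limma, beside 0.379% of the tested entries. The share in set 1 was 16.7%.

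Of the other mucins and trefoil peptides 2 of 7 in the table were tested, the membrane mucins Muc3 and Muc4. Muc3 averaged 315 FPKM and differed by 0.44 ± 0.203 in A10-FMT against Con-FMT of set 1 (limma, adjusted p = 0.14) and by -0.25 ± 0.203 in set 2 (adjusted p = 0.67), and Muc4 by -0.28 ± 0.126 and 0.1 ± 0.126 (adjusted p = 0.14 and 0.81), with the opposite sign to Muc3 in each set. Of 8 tested genes of cytokine signalling to goblet cells, 1 was called in that comparison of set 1, beside 16.7% of the tested entries. It was Il33 (0.88 ± 0.181, limma, adjusted p = 0.0039, chosen after its value was seen), at a mean of 3.84 FPKM. Il18 and Il10rb, the most abundant, differed by 0.14 ± 0.238 and 0.11 ± 0.0733 (adjusted p = 0.74 and 0.31).

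The 10 genes did not vary as 1 block. Of the 45 pairs of genes, 10 were correlated across the 23 libraries with an adjusted p under 0.05 for both Pearson's r and Spearman's rho (permutation tests, adjusted over the 45 pairs), all with r above 0 and with the same sign in each set and without the 2 libraries farthest from the median of the first gene. Zg16 and Tff3 went together most closely, with r = 0.937 and rho = 0.935 (permutation p = 1e-05 for each, the smallest that 100000 permutations can give, adjusted p = 0.00045), r = 0.911 without the 2 farthest libraries, and r = 0.935 in set 1 and 0.923 in set 2. Clca1 and Muc13 had r = 0.682 and rho = 0.749 (permutation p = 0.00031 and 9e-05, adjusted p = 0.00279 and 0.00202), r = 0.604 without the 2 farthest, and 0.547 in set 1 and 0.905 in set 2. Spink4 and Spdef had r = 0.83 and rho = 0.623 (permutation p = 7e-05 and 0.00182, adjusted p = 0.00157 and 0.0136), r = 0.61 without the 2 farthest, and 0.886 in set 1 but 0.18 in set 2, and without Sa replicate 3 of set 1 r was 0.641. Retnlb and Fcgbp were in none of the 10 pairs, and r of Retnlb lay between -0.189 and 0.136 over its 9 pairs. Muc2 and Clca1, also among the 10 pairs, had r = 0.808 in set 1 and 0.0951 in set 2. All pairs share the libraries and their scaling. The permutations ran over all 23 libraries without regard to treatment or set, so differences between groups and sets also enter these p-values.

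**Figure D4:**
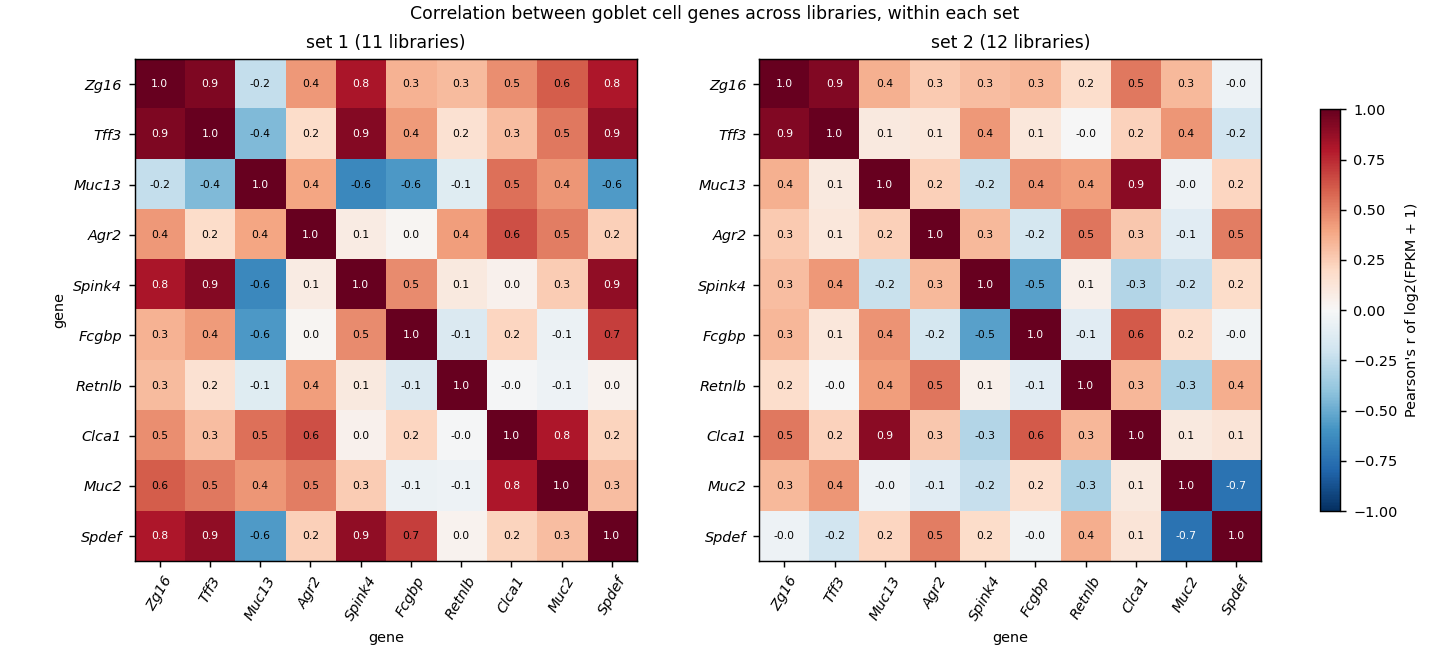
Pearson's r of log2(FPKM + 1) between the 10 goblet cell genes across the 11 libraries of set 1 (left) and the 12 of set 2 (right), coloured from -1 to 1. Zg16 with Tff3 is high in both sets (0.935 and 0.923), while Spink4 with Spdef is high in set 1 only (0.886 and 0.18).

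The genes whose pattern was most like the mean of the 10 (log2 values centred per gene, Pearson's r over 23 libraries) were Sqor (0.699), Kdelr3 (0.682), Dynlt1b (0.659), Hk1 (0.658) and Nfkbib (0.655). Of these, Kdelr3 is a receptor that returns chaperones to the endoplasmic reticulum. Without A100-FMT replicate 1 of set 1, the library with little Retnlb, r was 0.67, 0.744, 0.539, 0.596 and 0.767 in the same order. These values are a description and were not tested.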

How the data were processed

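RNA of 23 small intestine samples was extracted with TRIzol and sequenced on an Illumina HiSeq by the authors, who deposited 1 table of FPKM values per entry and library on mm10; the aligner and counter were not given in the sources used here. The authors name RPKM and DEGseq. Without read counts no count model was fitted and depth and its error are unknown. A symbol was found for 17725 of the 17842 NCBI Gene numbers. The table has 24 columns, of which 23 were used and 1 served as an alternative for Sa replicate 3 of set 1.

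Values were analysed as log2(FPKM + 1), so fold differences of low genes are understated. Entries with a mean of at least 1 FPKM were tested with limma 3.58.1 in R 4.3.3 (lmFit, eBayes with trend), with 1 mean per group over all 23 libraries, and p-values were adjusted over all tested entries by the Benjamini-Hochberg method with a threshold of 0.05. Standard errors are from this fit. The labels do not say that the libraries of a group came from separate mice, and p-values measure the spread between these libraries. Correlations used Python 3.11.15 with numpy 2.4.6. The fit was tested on simulated data.

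The members and gene lists were chosen with earlier results of these data known. Named are the 10 members, of each other list the 2 genes of highest mean FPKM, the genes of the goblet, glycosylation and factor lists called over both sets, and the 5 genes most like the members' mean; other names are marked, and 1 gene that the rule names is not reported here. Alternatives were a pseudocount of 0.1, a mean of at least 5 FPKM, every entry above 0, quantile normalization, trimmed-mean scaling, weights for array quality, the compared groups alone, the column of the description, a block for the replicate number, each library left out in turn, and an adjustment for GC content and length, known for 91.8% of tested entries. Promoters are from RefSeq on GRCm38.p6, the assembly behind mm10.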

Additional observations from a re-analysis of the deposited data

Results flagged for a closer look

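Differences between the sets that passed their own test in limma are listed here with their log2 value, set 2 minus set 1. For A10-FMT against Con-FMT they were Muc2 (-0.57), Clca1 (-0.75) and Muc13 (-0.45). This call of Muc13 was lost in 2 of 10 alternatives and in 4 of the 23 fits without 1 library. For A10-FMT against Sa they were Muc2 (-0.52) and Muc13 (-0.52), each lost in 2 of 10 alternatives, the compared groups alone and array quality weights. Without Sa replicate 1 of set 1 Muc2 was at -0.32, and without Sa replicate 3 of set 1 Muc13 was at -0.33. For A100-FMT against Sa they were Muc13 (-0.62) and Spink4 (0.59). Muc13 was lost in the same 2 alternatives and was at -0.43 without Sa replicate 3 of set 1. Spink4 was 0.12 after adjustment for GC content and length (adjusted p = 0.76), 0.19 under quantile normalization (adjusted p = 0.35) and lost in 5 of 10 alternatives. Groups held 2 or 3 libraries, too few for a test of outlying libraries within a group.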

How the results depend on the processing

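The number of the 10 goblet cell genes called was recomputed under each alternative. Of 209 such counts that kept every library, 162 were within 1.5 times the reported count and 47 moved, and of 483 counts without 1 library, 406 were and 77 moved. Comparisons with a reported count of 0 are included, and a 0 that stayed 0 is among the counts that held. These shares therefore overstate how steady the counts above 0 were. A pseudocount of 0.1 moved none. Muc2 kept its call for A10-FMT against Con-FMT in set 1 in all 10 alternatives (0.44 to 0.57, adjusted p = 0.0013 to 0.047) and all 23 fits without 1 library (0.4 to 0.61), whereas Clca1 kept it in 6 of 10 and 10 of 23. Spink4 of A100-FMT against Sa in set 1 went from -0.36 to -0.01 after adjustment for GC content and length (adjusted p = 0.97) and to -0.1 with the column of the description (adjusted p = 0.52). Retnlb of A100-FMT in set 1 changed sign without replicate 1 of that group, to 0.29 against Sa and 0.64 against Con-FMT, neither called, and ran over the fits without 1 library from -2.73 to 0.29 and from -2.38 to 0.64. Causes were not tested.

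Reported counts were 1 for Con-FMT, 1 for A10-FMT and 3 for A100-FMT against Sa in set 1, 2 for A10-FMT and 1 for A100-FMT against Con-FMT in set 1, and, for the difference between the sets, 2 for A10-FMT and 2 for A100-FMT against Sa and 3 for A10-FMT against Con-FMT, with 2 between the sets themselves and 0 elsewhere. With every entry above 0 tested, the counts that moved were Con-FMT against Sa in set 1 (0), A10-FMT against Con-FMT in set 1 (1) and the sets (1). With a mean of at least 5 FPKM, it was the difference between the sets for A10-FMT against Sa (4). With quantile normalization, they were A10-FMT against Sa in set 1 (4), the difference between the sets for A10-FMT (4) and for A100-FMT (4) against Sa, A10-FMT against Con-FMT in set 1 (1) and A100-FMT against Con-FMT over both sets (1). With trimmed-mean scaling, they were the difference between the sets for A10-FMT against Con-FMT (5) and the sets (4).

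With the compared groups alone, Con-FMT (0), A10-FMT (0) and A100-FMT (0) against Sa in set 1, the difference between the sets for A10-FMT (1) and A100-FMT (0) against Sa and for A10-FMT against Con-FMT (5), and A100-FMT against Con-FMT in set 1 (0) and over both sets (1) moved. With array quality weights, Con-FMT (0), A10-FMT (0) and A100-FMT (0) against Sa in set 1, A10-FMT against Sa in set 2 (1), the difference between the sets for A10-FMT (0) and A100-FMT (0) against Sa and for A10-FMT (5) and A100-FMT (3) against Con-FMT, A100-FMT against Con-FMT over both sets (1) and in set 2 (1), and between the sets (0) moved. With the column of the description, Con-FMT (0) and A10-FMT (3) against Sa in set 1, A100-FMT against Sa over both sets (1), the difference between the sets for A10-FMT (5) and A100-FMT (1) against Con-FMT, and A100-FMT against Con-FMT in set 2 (1) and over both sets (1) moved. With the adjustment for GC content and length, Con-FMT (0) and A10-FMT (2) against Sa in set 1, the difference between the sets for A10-FMT against Con-FMT (5), A100-FMT against Con-FMT over both sets (1) and the sets (0) moved.

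With a replicate block, Con-FMT (2) and A10-FMT (3) against Sa in set 1, the difference between the sets for A100-FMT against Sa (4), A10-FMT against Con-FMT in set 1 (1) and A100-FMT against Con-FMT over both sets (1) moved. Whether samples with the same replicate number are pairs is not known. Over the 33 pairs of libraries with the same number within a set, the correlation of their deviations from the group means ran from -0.352 to 0.319. Its median was 0.00187, beside -0.00366 for different numbers. Groups of 2 or 3 libraries cannot exclude a pairing.

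Without 1 library, counts against Sa ran from 0 to 6 for Con-FMT, 1 to 4 for A10-FMT and 0 to 6 for A100-FMT in set 1, from 0 to 5, 0 to 4 and 0 to 4 over both sets, and from 0 to 4, 1 to 4 and 1 to 5 for the difference between the sets. Against Con-FMT they ran for A10-FMT from 1 to 3 in set 1 and 2 to 5 for the difference between the sets, and for A100-FMT from 0 to 1 in set 1, in set 2, over both sets and for the difference between the sets. Between the sets they ran from 1 to 7. The highest counts against Sa came without Sa replicate 1 of set 1, which leaves that group to replicate 3, the library whose deviations follow GC content, and a lone library is there assumed to vary like the others. Without replicate 3 the counts of Con-FMT and A100-FMT against Sa in set 1 were 0. Depth is unknown, and groups of 2 or 3 libraries limit the precision.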

Other observations

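Retnlb was the tested entry that lay furthest below the median of the other libraries in A100-FMT replicate 1 of set 1, by -5.6 on the log2(FPKM + 1) scale. The 20 entries furthest below included 12 with a symbol, of which 10 lay on chromosome 17, beside 5.25% of all tested entries with a symbol. Among them were Rps28 with 4.94 FPKM (median of the other libraries 192), Tubb5 with 0.37 (39.1), Abcf1 with 0.87 (19.1) and the histocompatibility genes H2-T3, H2-Bl, H2-Ea, H2-DMb1 and H2-T22, which have near relatives, and how shared reads were counted was not given in the sources used here. These genes were named after their values were seen. Retnlb itself is on chromosome 16. The other goblet cell genes of this library lay within the range of the remaining libraries of their sets, with Muc2 at 395, Tff3 at 2078 and Agr2 at 856 FPKM.

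Between Con-FMT and A100-FMT over both sets, 2 of 9 Paneth cell markers and 4 of 11 enteroendocrine markers were lower with limma beside 0.123% of the tested entries, and none of the 10 goblet cell genes was called. Muc2 was near the threshold there (0.38, adjusted p = 0.069) and was called in 6 of 10 alternatives. The differences were -1.21 for Ang4 and -0.71 for Itln1 (adjusted p = 0.017 and 0.042), and -0.46 for Cck, -0.31 for Chga, -0.49 for Chgb and -0.55 for Gcg (adjusted p = 0.031, 0.0086, 0.017 and 0.042). These 6 genes were named after their values were seen, and whether the lists differ from each other was not tested.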
